A study of Homo sapiens with 3 samples.

Results

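The cholesterol and fatty acid synthesis genes described here are 36 of the 50867 genes in the deposited table, found by their symbols. They were chosen by function, but with earlier results of these data known, so shares set beside those of all genes are descriptions. They fall into 4 groups. There are 18 genes of sterol synthesis and 6 of SREBP control (with the sterol carrier STARD4). A further 8 are of fatty acid synthesis (with LPIN1) and 4 are linked to LXR and sterol efflux (with NPC1). All 36 were found, and all 36 had a mean of at least 1 CPM (counts scaled by library size) over the libraries, as did 15132 genes in all, which are called measured genes below.

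Expression was measured by sequencing of polyA+ RNA from the established bladder cancer line UM-UC-3, which is of human origin. The cells carried a lentiviral hairpin directed at BLACAT2, a long non-coding RNA (shBLACAT2 shRNA 1 and shRNA 2, 1 library each) or a scramble hairpin (shControl, 1 library). All 3 lines had been under puromycin for 2 weeks, and whether each line was a pool or a clone is not stated in the labels. The series asked which genes depend on BLACAT2.

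The libraries labelled shRNA 1, shRNA 2 and control held 17670199, 16216947 and 16424422 counts. BLACAT2, listed as LINC00958, had 816 counts in the library labelled shRNA 1, 1062 in the library labelled shRNA 2 and 938 in the control. Scaled for library size this was 0.735 of the control level with shRNA 1 (95% counting interval 0.668 to 0.808) and 0.996 with shRNA 2 (interval 0.911 to 1.09), so depletion was not detected in the library labelled shRNA 2. "With shRNA 1" and "with shRNA 2" therefore name the library labelled so throughout, and not a measured loss of the RNA. Of 12 epithelial and urothelial markers 10 were measured, with UPK1A and UPK3A at 0 or 1 counts. Of 21 markers of fibroblasts, endothelium, leukocytes, adipocytes and hepatocytes, none exceeded 0.369 FPKM or 66 counts in any library. FPKM is the authors' count scaled by gene length and by library size, and is used here to compare levels between genes. Since each hairpin and the control has 1 library, folds for a single hairpin carry no replicate check.

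Cells make cholesterol from acetyl-CoA through mevalonate, isoprenoid diphosphates, squalene and lanosterol, and make fatty acids from the same acetyl-CoA through malonyl-CoA. Transcription of both routes is driven by the SREBP factors (genes SREBF1 and SREBF2), which the escort protein SCAP carries out of the endoplasmic reticulum when membrane sterol is low and which INSIG proteins hold back when it is high. Oxysterols activate the nuclear receptor LXR, which in turn induces sterol exporters, the LDL receptor-degrading ligase MYLIP and SREBF1 itself.

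Most sterol synthesis genes, 13 of 18, were higher than the control with shRNA 1 and lower with shRNA 2, a pattern met by 13.4% of measured genes. Their median log2 fold over the control was 0.60 with shRNA 1 and −0.67 with shRNA 2, against 0.01 and 0.04 over all measured genes. Between the hairpin libraries, which does not involve the control, 17 of 18 sterol synthesis genes were lower with shRNA 2 than with shRNA 1, where 49.7% of all measured genes were. A difference of at least 2-fold in that direction was reached by 10 of the 18 genes, against 4.48% of measured genes, and the group's median log2 difference was −1.15, against 0.00 for all. At least 1.5-fold higher than the control with shRNA 1 were 9 of the 18 (16.3% of measured genes), and at least 1.5-fold lower with shRNA 2 were 10 (17.6%). Summed over the group, the scaled level was 1761 CPM with shRNA 1, 714 CPM with shRNA 2 and 1178 CPM in the control. With the hairpins on opposite sides, edgeR's quasi-likelihood test of both hairpins against the control passed none of the 18 genes (lowest adjusted p = 0.621) and 0.0397% of all measured genes. No gene of the group had an unadjusted p below 0.05, where 10.2% of measured genes did.

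**Figure D1:**
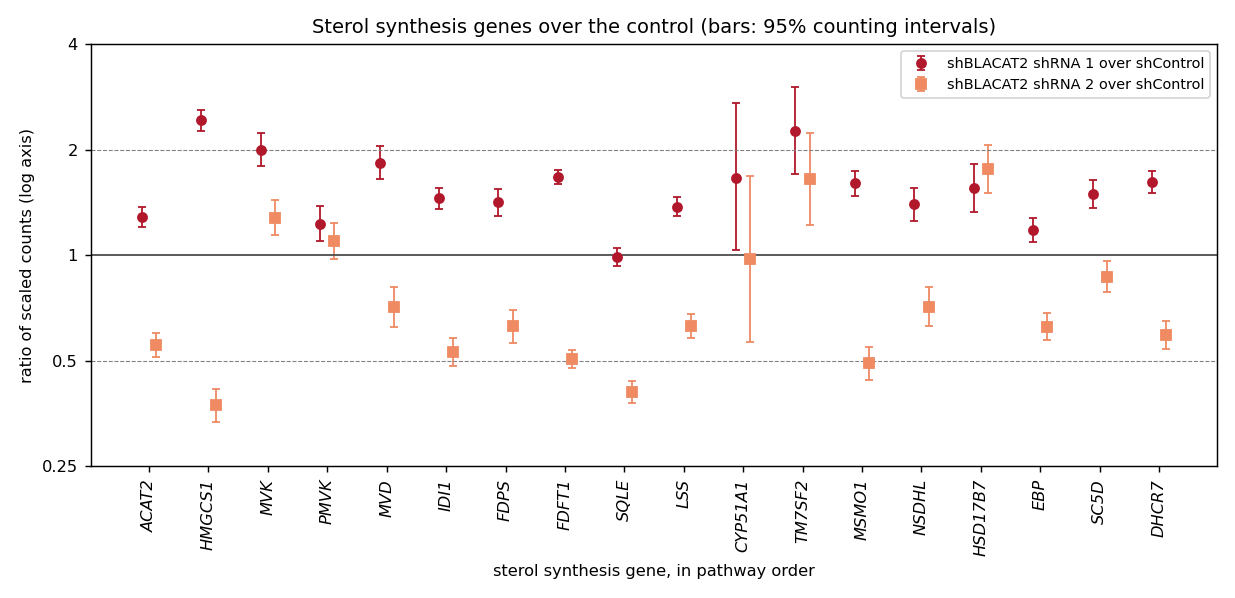
Ratio of scaled counts over shControl for the 18 sterol synthesis genes in the order of the pathway (log axis), with 95% counting intervals; circles are shRNA 1 and squares shRNA 2, 1 library each. The circles lie above 1 except at SQLE (0.989), and the squares lie below 1 except at MVK, PMVK, TM7SF2 and HSD17B7.

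The first steps make mevalonate and its activated isoprenoid units. HMGCS1 (ENSG00000112972; hg38, chromosome 5), the cytosolic HMG-CoA synthase, had 3282 counts with shRNA 1, 485 with shRNA 2 and 1144 in the control. This was 2.42-fold higher than the control with shRNA 1 (95% counting interval 2.27 to 2.60) and 2.68-fold lower with shRNA 2 (ratio 0.373, interval 0.335 to 0.415). Its log2 difference between the hairpins, −2.70, was the 16th lowest of 15132 measured genes. ACAT2, the cytosolic thiolase acting just before it, had 2313 counts with shRNA 1, 957 with shRNA 2 and 1518 in the control (log2 folds 0.36 and −0.85). It overlaps TCP1 and SOD2 on the other strand, which had 5944 and 1665 counts in the control, so that reads may be shared. MVD, the mevalonate diphosphate decarboxylase, had 1110, 413 and 511 counts with shRNA 1, with shRNA 2 and in the control, and the isomerase gene IDI1 had 2203, 773 and 1283. Both were therefore above the control with shRNA 1 (log2 folds 0.87 and 0.54) and below it with shRNA 2 (−0.49 and −0.91). The prenyltransferase gene FDPS had 1299 counts with shRNA 1, 553 with shRNA 2 and 776 in the control (log2 folds 0.50 and −0.67).

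The mevalonate kinases did not follow that order. MVK had 1139 counts with shRNA 1, 700 with shRNA 2 and 481 in the control, above the control with both hairpins (log2 folds 1.00 and 0.35). MMAB, a cobalamin enzyme gene that overlaps MVK on the other strand, had 458, 410 and 196 counts in the same libraries and thus was also higher with both. PMVK, which adds the next phosphate, had 714, 613 and 491 counts (log2 folds 0.30 and 0.13).

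Among enzymes of squalene and lanosterol formation, FDFT1 and LSS were ordered like HMGCS1, whereas SQLE was not above the control with shRNA 1. FDFT1, the squalene synthase, had 5704 counts with shRNA 1, 1657 with shRNA 2 and 2884 in the control, 1.67-fold higher with shRNA 1 (counting interval 1.60 to 1.75) and at 0.505 of the control with shRNA 2 (interval 0.475 to 0.537). SQLE, the squalene epoxidase and a rate-limiting step, had 2651, 1050 and 2266 counts. It was level with the control with shRNA 1 (log2 fold −0.02, which turned positive with library totals as the scaling) and 2.45-fold lower with shRNA 2. LSS, the lanosterol synthase, had 2557, 1122 and 1570 counts (log2 folds 0.46 and −0.67).

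Late steps turn lanosterol into cholesterol. MSMO1, which oxidises methyl groups of the sterol ring, had 1777 counts with shRNA 1, 524 with shRNA 2 and 938 in the control, 1.60-fold higher with shRNA 1 (interval 1.48 to 1.73) and at 0.491 of the control with shRNA 2 (interval 0.441 to 0.547). DHCR7, the last reductase, had 2298, 810 and 1203 counts (log2 folds 0.69 and −0.75). NSDHL, a sterol dehydrogenase, had log2 folds of 0.48 and −0.48, the isomerase gene EBP 0.24 and −0.67, and the desaturase gene SC5D 0.58 and −0.20. MSMO1, DHCR7, NSDHL, EBP and SC5D were thus above the control with shRNA 1 and below it with shRNA 2, although with library totals as the scaling SC5D with shRNA 2 was at 0.00. Both 1.5-fold limits, higher with shRNA 1 and lower with shRNA 2, were passed by HMGCS1, FDFT1, MSMO1 and DHCR7, and by 38 (0.251%) of measured genes in all.

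The remaining late-step genes departed from that order or were sparsely counted. TM7SF2, a sterol reductase, had 187 counts with shRNA 1, 131 with shRNA 2 and 70 in the control (log2 folds 1.15 and 0.70), and it overlaps VPS51 on the same strand. HSD17B7, a ketosteroid reductase, had 446, 485 and 243 counts (log2 folds 0.63 and 0.81) and was the 1 member of the group that was not lower with shRNA 2 than with shRNA 1. Its near-identical pseudogene HSD17B7P2 had 139, 354 and 82 counts, so the reads of the pair cannot be fully told apart. CYP51A1, the lanosterol demethylase, had only 55, 31 and 28 counts, and its ratio with shRNA 2 of 0.974 had a counting interval of 0.565 to 1.68. A difference from the control was not detectable with so few counts for CYP51A1 with shRNA 2. CYP51A1 overlaps LRRD1 on the same strand (6, 10 and 3 counts) and CYP51A1-AS1 on the other (1, 1 and 4 counts). Whether these overlaps lowered its counts was not tested.

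Upstream sequences of the members are shown because most sterol genes shared an order of levels. RefSeq promoter windows (GRCh38.p14, 250 bases before to 50 after each annotated start) were found for 31 of the 36 genes. The letters CCAAT, bound by NF-Y, a factor known to act with SREBP, were searched on both strands. They stood in at least 1 window of 13 of 15 sterol synthesis genes, and PMVK and CYP51A1 were the exceptions. They also stood in those of 3 of 6 SREBP control genes, 4 of 7 fatty acid synthesis genes and 1 of 3 LXR-linked genes. The share was 39.7% of all 27305 genes with a window (34.6% of single windows) and 42.6% of the measured genes among them. The GC box GGGCGG stood in windows of 30 of the 31 genes, against 48.3% of all genes and 77.0% of measured ones. The sterol response element form TCACNCCAC stood in a window of SREBF2 alone, against 1.39% of all genes and 1.46% of measured ones. A shorter form, CACNCCAC, which every match of the longer form also holds and which was chosen after the data were seen, stood in windows of 7 of the 31 genes, against 7.05% of all genes and 7.85% of measured ones. The E-box CACGTG stood in windows of 5 of the 31 genes, against 8.77% of all genes and 12.5% of measured ones. A match is a description of these letters, not a bound site, and base composition was not matched. The 250 bases before the start are printed for 3 genes at least 3-fold lower with shRNA 2 than shRNA 1 (HMGCS1, MSMO1 and INSIG1). They are also printed for STARD4 and SREBF1, which had other patterns. Where a gene had several windows, the window with the most CCAAT matches was taken, and another window of HMGCS1 held none. The letters run 5′ to 3′, with CCAAT of either strand (CCAAT or ATTGG) in capitals. The regions are, for HMGCS1, chr5:43313413-43313662 on the minus strand, for MSMO1, chr4:165327419-165327668 on the plus strand, for INSIG1, chr7:155297628-155297877 on the plus strand, for STARD4, chr5:111512536-111512785 on the minus strand and for SREBF1, chr17:17836987-17837236 on the minus strand.
HMGCS1: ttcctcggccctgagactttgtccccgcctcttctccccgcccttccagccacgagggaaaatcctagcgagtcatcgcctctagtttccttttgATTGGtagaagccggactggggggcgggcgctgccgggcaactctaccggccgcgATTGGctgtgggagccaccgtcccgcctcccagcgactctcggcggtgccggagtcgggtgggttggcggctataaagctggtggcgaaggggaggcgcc
MSMO1: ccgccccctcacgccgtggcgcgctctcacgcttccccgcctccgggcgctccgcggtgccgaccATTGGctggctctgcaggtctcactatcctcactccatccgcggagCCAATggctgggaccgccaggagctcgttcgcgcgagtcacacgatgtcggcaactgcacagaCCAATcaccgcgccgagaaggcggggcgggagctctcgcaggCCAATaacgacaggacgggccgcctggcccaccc
INSIG1: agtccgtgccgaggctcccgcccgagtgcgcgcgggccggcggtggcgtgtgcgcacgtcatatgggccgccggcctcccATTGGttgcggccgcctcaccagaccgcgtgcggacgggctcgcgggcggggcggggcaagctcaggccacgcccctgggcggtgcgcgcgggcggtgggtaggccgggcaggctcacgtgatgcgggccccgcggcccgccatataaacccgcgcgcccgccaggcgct
STARD4: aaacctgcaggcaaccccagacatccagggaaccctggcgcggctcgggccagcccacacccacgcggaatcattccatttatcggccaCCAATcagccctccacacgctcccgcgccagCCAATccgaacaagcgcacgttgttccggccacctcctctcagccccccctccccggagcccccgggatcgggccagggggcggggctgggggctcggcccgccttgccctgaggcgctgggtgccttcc
SREBF1: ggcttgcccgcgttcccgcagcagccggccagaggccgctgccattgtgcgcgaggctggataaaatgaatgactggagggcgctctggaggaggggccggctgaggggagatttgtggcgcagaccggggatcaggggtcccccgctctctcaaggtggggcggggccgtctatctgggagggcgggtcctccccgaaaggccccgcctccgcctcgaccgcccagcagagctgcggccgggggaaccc
Counted from the start, the first bases of the matches lie at −155 and −100 in HMGCS1, at −185, −139, −76 and −34 in MSMO1, at −170 in INSIG1 and at −161 and −130 in STARD4. SREBF1 has no match in these bases. FDFT1 and ELOVL6 were also at least 3-fold lower with shRNA 2 than with shRNA 1 and are not printed. The window of ELOVL6 holds no CCAAT. No promoter window was found for FDFT1, so it was not searched.

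Of the 6 SREBP control genes, INSIG1 alone was at least 2-fold lower with shRNA 2 than with shRNA 1 (4.48% of measured genes). None passed both 1.5-fold limits, higher with shRNA 1 and lower with shRNA 2 (0.251% of measured genes). INSIG1, which retains SCAP and is itself an SREBP target, had 1714 counts with shRNA 1, 504 with shRNA 2 and 1433 in the control. It was level with the control with shRNA 1 (ratio 1.01, counting interval 0.942 to 1.08) and 3.23-fold lower with shRNA 2 (ratio 0.309, interval 0.279 to 0.343). SREBF2, whose product mainly serves the sterol genes, had 3849, 2323 and 2271 counts (log2 folds 0.52 and −0.15), and the second value turned to 0.05 with library totals as the scaling. INSIG2 had 479, 383 and 474 counts (log2 folds −0.23 and −0.49). SCAP had 1405, 1441 and 1171 counts, with ratios of 1.01 with shRNA 1 (interval 0.938 to 1.10) and 1.08 with shRNA 2 (interval 1.00 to 1.17).

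SREBF1, whose product mainly serves fatty acid genes, had 1818 counts with shRNA 1, 1884 with shRNA 2 and 860 in the control, so both hairpin libraries lay above the control. It was 1.79-fold (interval 1.65 to 1.94) and 1.93-fold (interval 1.78 to 2.09) higher, a mean log2 fold of 0.89 ± 0.08 (SD, n = 2). Here and below, the SD is that between the hairpins and leaves out the error of the control library they share. For SREBF1, edgeR gave an adjusted p of 0.441 (unadjusted 0.0370). The gene RAI1, which overlaps it on the other strand, had 1740, 1991 and 1915 counts in the same libraries.

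STARD4, a soluble sterol carrier and SREBP target, was the 1 member at least 2-fold lower with both hairpins (4.5% of measured genes). SQLE, INSIG2, FADS1, FADS2 and ABCA1 also lay below the control with both, but not by 2-fold with each. STARD4 had 1271 counts with shRNA 1, 818 with shRNA 2 and 2743 in the control. That placed shRNA 1 at 0.392 of the control (interval 0.366 to 0.419) and shRNA 2 at 0.262 (interval 0.242 to 0.284). Its mean log2 fold was −1.64 ± 0.41 (SD, n = 2). edgeR gave an adjusted p of 0.195 and DESeq2 0.0219, the 1 call among members by any of the tests run (DESeq2 passed 3.49% of measured genes), over which the adjusted p ranged from 0.0219 to 0.747. The antisense RNA STARD4-AS1, picked once its values were known, had 61 counts with shRNA 1, 45 with shRNA 2 and 1040 in the control, lower with both hairpins as well. Because the strand setting of the authors' counting is not stated, part of the STARD4 difference may be shared with STARD4-AS1, and this was not tested.

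**Figure D2:**
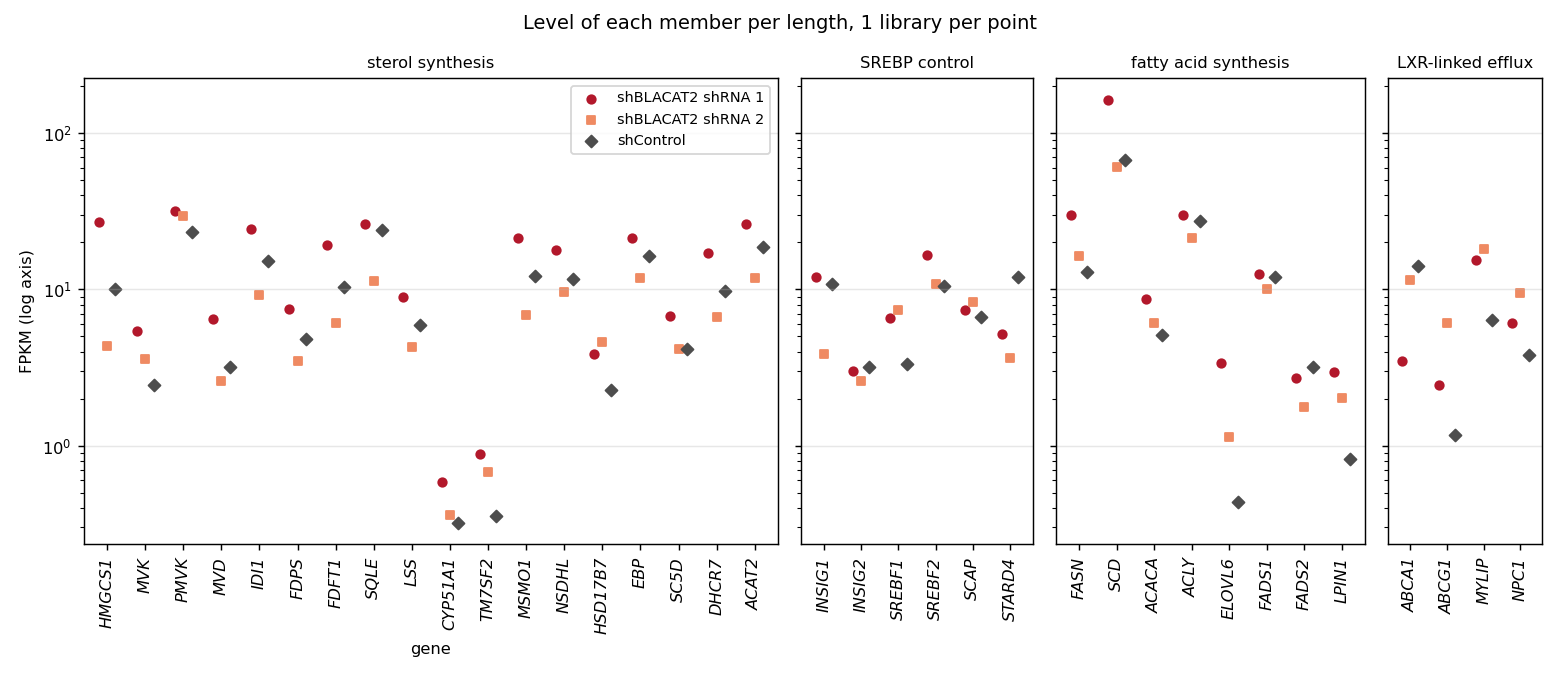
FPKM of each of the 36 genes (log axis) by group, with 1 point per library: circles shRNA 1, squares shRNA 2 and diamonds shControl. SCD is the highest gene in every library, and most sterol synthesis genes show circles on top and squares at the bottom, whereas SREBF1, ABCG1, MYLIP and NPC1 show both hairpin libraries above the control.

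Of the 8 fatty acid synthesis genes, 5 were at least 1.5-fold higher than the control with shRNA 1, against 16.3% of measured genes. These were FASN, SCD, ACACA, ELOVL6 and LPIN1, while ACLY, FADS1 and FADS2 were not higher. With shRNA 2 the 8 genes were mixed, ELOVL6 and LPIN1 being at least 2-fold higher (13% of measured genes) and FADS2 at least 2-fold lower (8.76%). Their median log2 folds were 0.86 and −0.15, and the second turned to 0.06 with library totals as the scaling. All 8 were lower with shRNA 2 than with shRNA 1 (median log2 difference −0.65), as were 49.7% of measured genes. ELOVL6 and SCD were lower by at least 2-fold, 2 of 8 against 4.48% of measured genes. SCD, the stearoyl-CoA desaturase that makes monounsaturated fatty acids, was the most abundant member at 164 FPKM with shRNA 1, 60.8 FPKM with shRNA 2 and 67.3 FPKM in the control. It was 2.21-fold higher with shRNA 1 (interval 2.15 to 2.28) and 1.27-fold lower with shRNA 2 (ratio 0.785, interval 0.756 to 0.814). FASN, the fatty acid synthase, had 6642, 3308 and 2660 counts, 2.11-fold (interval 2.02 to 2.21) and 1.09-fold (interval 1.04 to 1.15) higher. ACACA, which makes malonyl-CoA, had 3531, 2270 and 1916 counts (log2 folds 0.64 and 0.06). ACLY, which makes cytosolic acetyl-CoA for both routes, had 4845, 3165 and 4085 counts (log2 folds 0.00 and −0.55), so it did not stand above the control with shRNA 1. Without SCD, the summed level of the group was 1181 CPM with shRNA 1, 742 CPM with shRNA 2 and 863 CPM in the control.

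ELOVL6 and LPIN1 were the members of this group at least 2-fold higher with both hairpins, 2 of 8 against 5.29% of measured genes. ELOVL6, which elongates saturated fatty acids made by FASN, had 653 counts with shRNA 1, 203 with shRNA 2 and 79 in the control, 6.98-fold (interval 5.52 to 8.94) and 2.26-fold (interval 1.73 to 2.97) higher. LPIN1, a phosphatidate phosphatase of glycerolipid synthesis, had 1135, 711 and 292 counts, 3.28-fold (interval 2.89 to 3.75) and 2.14-fold (interval 1.87 to 2.46) higher. Their mean log2 folds were 1.97 ± 1.14 and 1.40 ± 0.44 (SD, n = 2), with edgeR adjusted p of 0.431 and 0.301. The desaturases of polyunsaturated fatty acids were not higher. FADS1 had 3606, 2680 and 3221 counts (log2 folds −0.08 and −0.45), and FADS2 had 732, 437 and 807 (−0.38 and −1.07). The FADS1 and FADS2 genes overlap on opposite strands, and FADS2 also overlaps FEN1, which had 3088 counts in the control.

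Among the LXR-linked genes, ABCG1, MYLIP and NPC1 were higher with both hairpins and ABCA1 was lower. ABCG1, an exporter of cholesterol to lipoprotein particles, had 324 counts with shRNA 1, 736 with shRNA 2 and 143 in the control, 1.91-fold (interval 1.57 to 2.35) and 4.53-fold (interval 3.78 to 5.45) higher. MYLIP had 949, 1029 and 365 counts, 2.20-fold (interval 1.95 to 2.49) and 2.48-fold (interval 2.20 to 2.80) higher, with a mean log2 fold of 1.22 ± 0.12 (SD, n = 2) and an edgeR adjusted p of 0.272. NPC1, which exports cholesterol from lysosomes, had 1532, 2174 and 879 counts, 1.47-fold (interval 1.35 to 1.60) and 2.18-fold (interval 2.01 to 2.36) higher. It overlaps C18orf8 on the other strand, which had 498, 605 and 396 counts.

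ABCA1, the exporter of cholesterol to apolipoprotein acceptors, went the other way. It had 736 counts with shRNA 1, 2228 with shRNA 2 and 2778 in the control. It stood 4.47-fold lower with shRNA 1 (ratio 0.224, interval 0.206 to 0.243) and at 0.705 of the control with shRNA 2 (interval 0.667 to 0.746). All 4 LXR-linked genes were higher with shRNA 2 than with shRNA 1, whereas 49.7% of measured genes were lower. ABCA1 was 3.15-fold higher (interval 2.90 to 3.43), ABCG1 2.36-fold (interval 2.07 to 2.70), NPC1 1.48-fold and MYLIP 1.13-fold. In the reverse direction were 17 of 18 sterol synthesis genes and all 8 fatty acid synthesis genes. At least 2-fold higher with shRNA 2 than with shRNA 1 were 2 of the 4 LXR-linked genes, against 8.35% of measured genes.

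**Figure D3:**
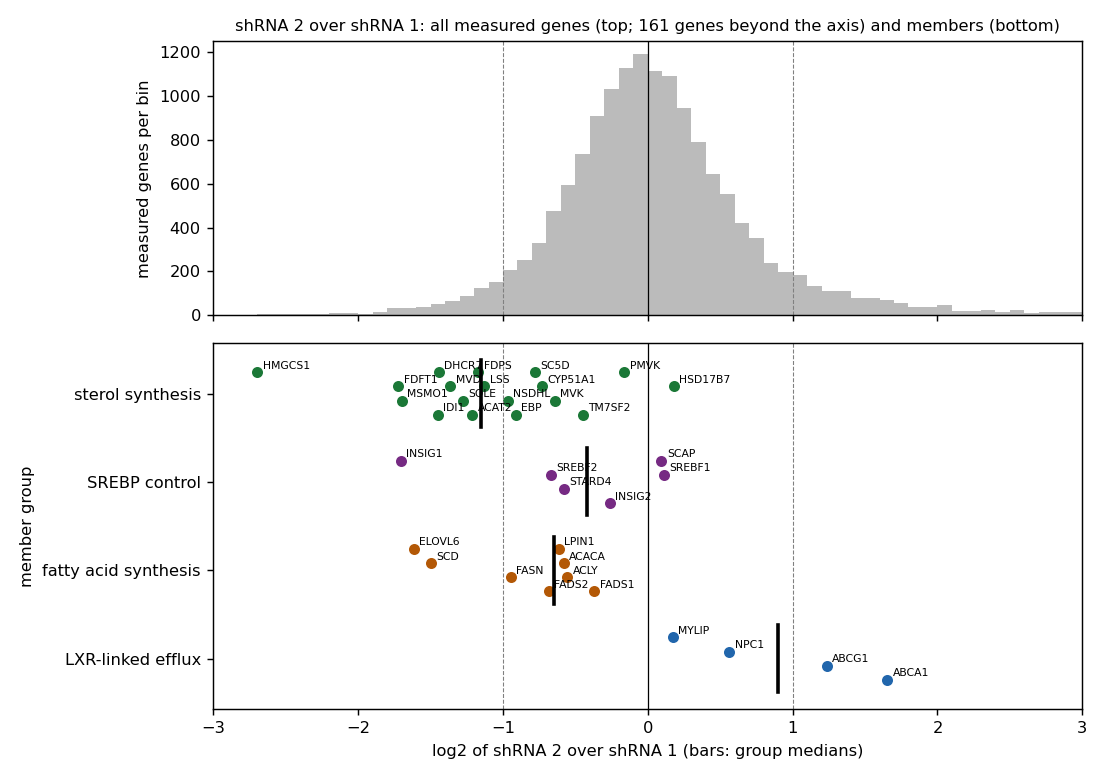
Log2 of shRNA 2 over shRNA 1 for all 15132 measured genes (histogram, top; 161 genes lie beyond ±3) and for the members by group (points, bottom), with black bars at group medians and dashed lines at 2-fold. The medians are −1.15 for sterol synthesis, −0.42 for SREBP control, −0.65 for fatty acid synthesis and 0.90 for LXR-linked genes.

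Over all members, few genes had a large fold of the same sign with both hairpins. Of the 36 members, 4 were at least 2-fold from the control in the same direction with both hairpins, ELOVL6, LPIN1 and MYLIP higher and STARD4 lower, against 9.79% of measured genes (5.29% higher and 4.5% lower), so the members' share is near that of all genes. At 1.5-fold, 7 members were higher with both hairpins (11.1% of measured genes) and STARD4 was lower (8.53%). Between the hairpin libraries, 15 members were at least 2-fold apart, against 12.8% of measured genes in either direction. Of these, 13 were lower with shRNA 2 (4.48% of measured genes) and 2 were higher (8.35%). With shRNA 1 alone, 7 members were at least 2-fold higher than the control (7.92% of measured genes) and 2 were lower (7.38%). With shRNA 2 alone, 5 were higher (13% of measured genes) and 6 lower (8.76%). edgeR passed none of the 36 (lowest adjusted p = 0.195), and STARD4, MYLIP, LPIN1, ELOVL6, SREBF1 and ABCG1 had an unadjusted p below 0.05, 6 of 36 against 10.2% of measured genes. Both folds share the single control library, and the spread that edgeR uses is that between the hairpins, with 1 residual degree of freedom.

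**Figure D4:**
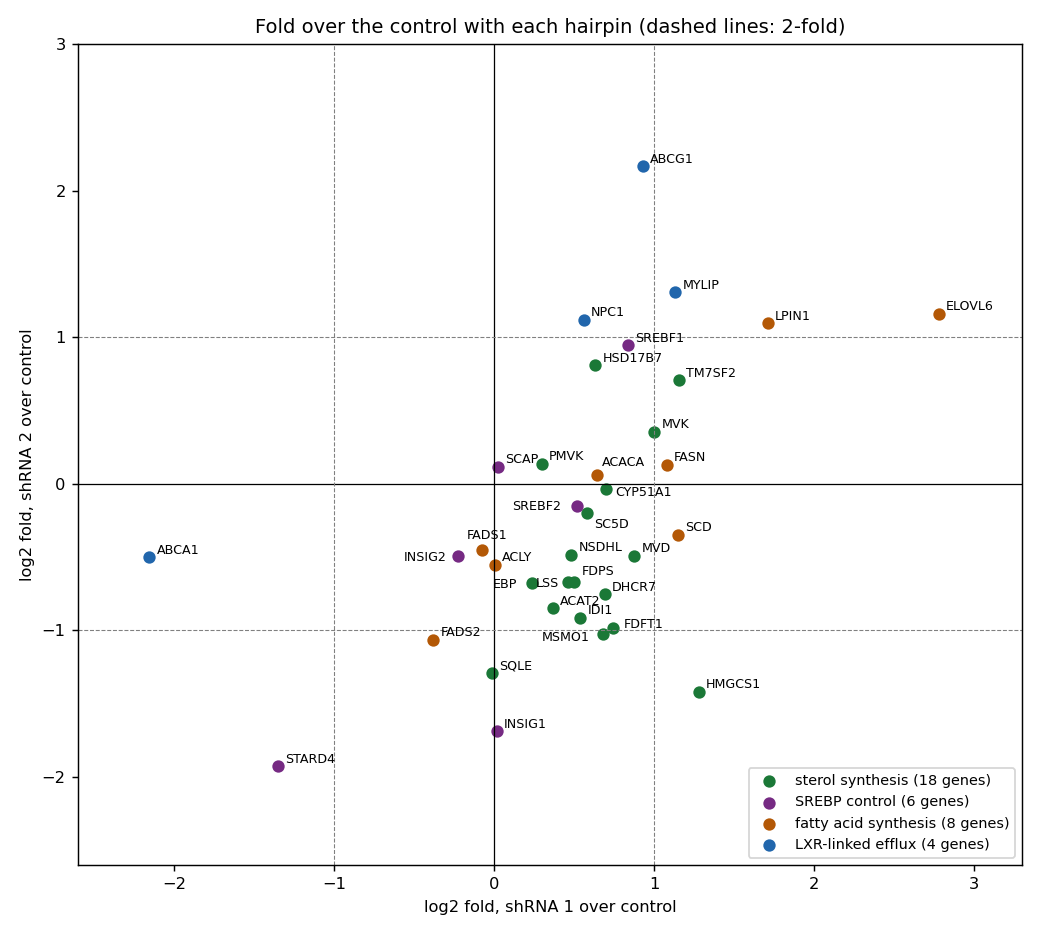
Log2 fold over shControl with shRNA 1 (x axis) and shRNA 2 (y axis) for the 36 members, coloured by group, 1 library per hairpin; dashed lines mark 2-fold. ELOVL6, LPIN1 and MYLIP lie at the upper right beyond both lines and STARD4 at the lower left, while HMGCS1 lies at the lower right.

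Transcripts of the mitochondrial genome took 4.58% of counts with shRNA 1, 2.51% with shRNA 2 and 3.88% in the control, the order seen for most sterol enzymes. Scaling and testing without these genes, an alternative added after the data were seen, left the sterol median at 0.60 and −0.67 over the control and at −1.15 between the hairpins. The summed level of the epithelial and urothelial markers was 724, 421 and 460 FPKM with shRNA 1, with shRNA 2 and in the control. Gene by gene, the 10 measured markers had median log2 folds of 0.97 with shRNA 1 and 0.36 with shRNA 2, so with shRNA 2 the sum lay below the control and the median above it. Of the 10, CDH1, UPK1B and UPK2 passed 2-fold above the control with each hairpin, against 5.29% of measured genes. No marker passed 2-fold below it with both, where 4.5% of measured genes did. The part of these markers in the result was not tested.

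Further genes of the same pathways were read from 4 lists. Of 11 measured isoprenoid and sterol genes outside the set, none was at least 2-fold from the control with both hairpins, and their median log2 difference between the hairpins was −0.14. At least 2-fold lower with shRNA 2 than with shRNA 1 were C14orf1, now named ERG28, a scaffold of sterol demethylation (901, 399 and 694 counts with shRNA 1, with shRNA 2 and in the control), PDSS2, a subunit of the enzyme that makes the coenzyme Q tail (724, 223 and 155 counts), and RDH11 (1296, 607 and 1241 counts), 3 of 11 against 4.48% of measured genes. FAXDC2 was 2.54-fold higher with shRNA 2 than with shRNA 1 (68, 166 and 149 counts), 1 of 11 against 8.35%. These 4 genes were chosen after their values were seen. Of 11 measured genes of SREBP processing, none passed the size rule, and FAF2, the most abundant, had log2 folds of −0.32 and −0.26.

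Of 30 measured genes of fatty acid and glycerolipid synthesis outside the set, 3 were at least 2-fold higher (5.29% of measured genes) and 1 lower (4.5%) with both hairpins, so 4 of 30 lies near the 9.79% of measured genes in either direction. GPAT3, a glycerol-phosphate acyltransferase, had 242 counts with shRNA 1, 326 with shRNA 2 and 45 in the control. MID1IP1, which promotes acetyl-CoA carboxylase polymerisation, had 799, 981 and 200 counts, and ACSS2, an acetyl-CoA synthetase that feeds lipid synthesis, had 818, 825 and 316. The 1 lower gene was ACSL4, an acyl-CoA synthetase for polyunsaturated fatty acids, with 1522, 890 and 2740 counts, chosen after its values were seen. Their log2 folds were 2.14 and 2.62 for GPAT3, 1.75 and 2.10 for MID1IP1, 1.12 and 1.19 for ACSS2 and −1.09 and −1.81 for ACSL4. The elongation genes ELOVL5 (1736, 751 and 1743 counts) and TECR (2913, 1201 and 2358 counts), also chosen after their values were seen, were lower with shRNA 2 by 2.22-fold and 2.33-fold against shRNA 1, 2 of 30 genes past 2-fold against 4.48% of measured genes. In the other direction, the desaturase family gene FADS3 was 2.69-fold higher with shRNA 2 than with shRNA 1 (788, 2034 and 1568 counts). The elongation genes ELOVL7 and HACD1 were 1.52-fold and 1.30-fold higher, all 3 again chosen with their values known.

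Of 24 measured genes of sterol trafficking, LXR and efflux, RXRA, the partner receptor of LXR, was the 1 gene at least 2-fold from the control with both hairpins, with 3592 counts with shRNA 1, 3360 with shRNA 2 and 1235 in the control (log2 folds 1.30 and 1.26). That is 1 of 24, below the 9.79% of measured genes. The LXR genes NR1H2 (745, 749 and 734 counts) and NR1H3 (206, 142 and 149 counts), chosen after their values were seen, had log2 folds between −0.25 and 0.22. The lipoprotein receptor gene VLDLR, chosen in the same way, had 117 counts with shRNA 1, 461 with shRNA 2 and 178 in the control. At least 2-fold lower than the control were PLTP with shRNA 1 (1 of 24, 7.38% of measured genes) and GRAMD1B and LPCAT3 with shRNA 2 (2 of 24, 8.76%). At least 2-fold higher were LRP8 and RXRA with shRNA 1 (2 of 24, 7.92%) and RXRA, STARD5 and VLDLR with shRNA 2 (3 of 24, 13%). These genes were named after their values were seen, except RXRA. Between the hairpins, 3 of the 24 were at least 2-fold higher with shRNA 2 (8.35% of measured genes) and 2 lower (4.48%). No gene of the 4 lists passed edgeR's test (lowest adjusted p = 0.150, for MID1IP1). By DESeq2, GPAT3 (adjusted p = 0.0138) and MID1IP1 (0.00820) passed, 2 of the 30 genes of their list against 3.49% of measured genes.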

How the data were processed

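Per the labels' protocols, total RNA was made into libraries with a stranded TruSeq mRNA kit. Per the submitters' processing notes, the aligner was TopHat2 2.0.9 and the build hg38. Which tool counted reads, with which strand setting and annotation, is not given in the sources used here. The deposited table holds whole-number counts per gene and FPKM by the authors, 1 column of each per library. Of 50871 lines, 4 broken lines of 1 gene were left out.

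Genes averaging 1 CPM or more were scaled with edgeR 4.0.16 (TMM), and log2 folds used a prior count of 2. Both hairpins were tested against the control with edgeR's quasi-likelihood test, two-sided, with Benjamini-Hochberg adjustment over 15132 genes and a threshold of 0.05. The model was tested on simulated data. DESeq2 1.42.0 and limma 3.58.1 were alternatives, beside other scalings, filters and a prior count of 0.5. Nothing in the labels names repeated cultures, so p-values reflect only how far these libraries differ, which may be technical. The 95% intervals of ratios are exact conditional binomial ones and cover counting error alone. Strands and overlaps come from GENCODE release 29, promoter windows from RefSeq.

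Members, lists, tests and motifs were chosen with earlier results of these data known. All 36 members are named. Of each list of other genes, up to 3 at least 2-fold from the control with both hairpins, or otherwise the most abundant 1, are named by rule; 1 gene so chosen is not reported here.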

Additional observations from a re-analysis of the deposited data

How the results depend on the processing

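Of 645 recomputed member values, none that was at least 2-fold changed sign and 59 moved by more than their counting interval, 57 of these with library totals, which shifted all genes to a median log2 fold of 0.14 with shRNA 1 and 0.24 with shRNA 2. Under all 6 settings the sterol median stayed between 0.58 and 0.74 with shRNA 1, between −0.73 and −0.47 with shRNA 2 and between −1.20 and −1.08 between hairpins. Members at least 2-fold from the control with both hairpins numbered 4 or 5, and members that far apart between hairpins 15 or 16. Leaving out either hairpin gave 9 to 11 members and 2315 to 3286 genes at least 2-fold from the control by the other hairpin alone, against 4 and 1481 with both, and no test could then be made. Without the filter these gene counts were 2805 from the control and 4434 between hairpins, and with a filter at 5 CPM 979 and 1071, against 1481 and 1942. The edgeR count of 6 genes became 0 without the filter, at 5 CPM, without mitochondrial genes and with limma (the cause was not tested), and 528 with DESeq2, which passed 1 member, STARD4. With library totals the split of genes 2-fold from the control was 1031 higher and 553 lower, against 800 and 681. Values of 8 members near the control level changed sign under a scaling or without the filter: SQLE, FADS1, INSIG1, SCAP and ACLY with shRNA 1, and CYP51A1, SC5D and SREBF2 with shRNA 2. No paired analysis was possible because nothing in the labels pairs the single control library with either hairpin library. Low counts limited CYP51A1, whose counting interval with shRNA 2 spanned the control level.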
